A study of Mesocricetus auratus with 6 samples.

Results

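Cytosolic ribosomal proteins are the protein subunits of the ribosomes that translate messages in the cytoplasm. Their messages were read in pregnant uterus of the Syrian golden hamster by 93 probe sets for 55 genes, out of 22215 probe sets tested. A probe set was a member where the platform annotation gave it a single gene symbol made of RPL, RPLP or RPS, a number and at most 1 letter X, A or L, which leaves out the kinases named RPS6K and the pseudogenes. The large subunit had 55 of these probe sets for 34 genes and the small subunit 38 for 21 genes. RefSeq's list for assembly BCM_Maur_2.0 held 53 of the 55 symbols, and the symbols printed here are those of the human array.

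All samples were total RNA of untreated uterus from pregnancy day 5, when the blastocyst attaches. Uterus that held an embryo (implantation sites, 3 arrays) was set against uterus without one (interimplantation sites, 3 arrays), with each array labelled a biological replicate. The design text names 3 animals but no label ties an array to an animal, and p-values measure only how these arrays vary, which may be technical. No strain beyond the species name and no age is labelled. A piece of whole uterus holds muscle, stroma, epithelium, vessels and blood cells, and an implantation site also holds the embryo. In such bulk tissue fewer cells of a type and less message per cell cannot be told apart.

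The ribosome joins a small subunit, which reads the message, to a large subunit, which makes the peptide bond. Ribosomal protein messages are among the most abundant in dividing and secreting cells. Most begin with a run of pyrimidines at the 5′ end, the terminal oligopyrimidine (TOP) tract, through which the growth kinase mTOR and the protein LARP1 control their translation. Uterine stroma around the attaching embryo proliferates and turns into decidua, a tissue that makes much protein.

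The probes were designed on human transcripts, so brightness reflects the match of hamster and human sequence as well as the amount of message. Levels are therefore compared between arrays for one probe set, and not between genes. Values are log2. Differences are implantation minus interimplantation with a standard error (SE) from limma, and group means carry the standard deviation (SD, n = 3 arrays). A probe set passed where limma's p, adjusted by Benjamini-Hochberg over all 22215 probe sets, was under 0.05.

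The 6 arrays had nearly one distribution, with a percentile 75 of 5.17 to 5.18. Over the 93 ribosomal protein probe sets, pairs of arrays correlated at 0.9949 to 0.9985 within a group and at 0.9943 to 0.9979 between the groups. The 5′ end of actin was brighter than its 3′ end on every array. The log2 of 3′ over 5′ is used as a measure of RNA quality. On human probes it also depends on how well each end matches the hamster sequence. For actin it was −2.08 ± 0.22 at implantation and −1.70 ± 0.15 at interimplantation sites (exact permutation test, two-sided, p = 0.1, the smallest possible). For GAPDH it was −0.21 ± 0.16 and 0.13 ± 0.17 (exact permutation p = 0.2). The part of RNA quality in the differences of ribosomal proteins was not tested.

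No ribosomal protein probe set passed: 0 of 93 were called higher and 0 lower, where 0.702% and 0.356% of all probe sets were called in these directions and 1.06% in either. At an unadjusted p under 0.05, 2 were higher and 10 lower, or 2.15% and 10.8% of the members, beside 5.27% and 5.23% of all probe sets. The groups of arrays did not overlap in 3 probe sets that were higher and 15 that were lower (3.23% and 16.1%), beside 7.72% and 8.3% of all probe sets. Differences ran from −0.37 (RPS19) to 0.28 (RPL8), and 63 of 93 were below 0. The median difference was −0.05, beside −0.01 over all probe sets. The 95% confidence interval of a member reached 0.19 to either side in the median, a width that goes with an unadjusted p of 0.05. At a member with an interval of that width, a smaller difference did not reach an unadjusted p of 0.05. Members with narrower intervals could reach it with less. Passing after adjustment took larger ones, and RPS19 at −0.37 did not pass.

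Of the 10 lower probe sets with an unadjusted p under 0.05, 8 belonged to the small subunit. Its median difference was −0.11, with 8 of 38 probe sets lower and 1 higher on that count (21.1% and 2.63%). For the large subunit the median was −0.03, with 2 of 55 lower and 1 higher (3.64% and 1.82%). Over all probe sets these shares were 5.23% and 5.27%, and over those with a mean of 8 or more 16.1% and 38.7%. The difference between the subunits was not tested. The share of probe sets below 0 was 68.4% in the small and 67.3% in the large subunit. Without interimplantation replicate 2 the medians of the small and large subunit were −0.06 and −0.0044, beside −0.0155 over all probe sets. Without _x_at and _s_at probe sets they were −0.0287 and −0.02, over 9 and 17 probe sets. The small subunit also held 13 of the 16 members with a mean of 8 or more, and the part of brightness in the contrast of the subunits was not tested.

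RPS27, a zinc finger protein of the small subunit, had the smallest p of all members. Its single probe set read 10.06, 10.15 and 10.22 on the implantation arrays and 10.46, 10.56 and 10.45 on the interimplantation arrays. Every implantation array was below every interimplantation array, and the spread within a group was small against the gap. The difference was −0.35 ± 0.08 (SE), a 1.27-fold lower value, with a 95% interval of −0.51 to −0.18 (adjusted p = 0.0614). RPS27 passed with a filter on dim probe sets at the median (adjusted p = 0.0447) or at the third quartile of brightness (0.0267), after cyclic loess (0.046) and after repeated quantile normalization (0.00223). Over 16 alternatives its adjusted p ran from 0.00223 to 0.21.

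RPS19, a small subunit protein needed for maturation of that subunit and the gene most often mutated in Diamond-Blackfan anaemia, was read by 2 probe sets that gave nearly the same difference. The first (202649_x_at) read 9.56, 9.62 and 9.63 at implantation and 9.81, 10.06 and 9.96 at interimplantation sites, a difference of −0.34 ± 0.08 (SE; adjusted p = 0.09). The second (213414_s_at) read 9.94, 9.90 and 9.98 against 10.09, 10.43 and 10.42, a difference of −0.37 ± 0.10 (SE; adjusted p = 0.118). In both, the groups did not overlap and interimplantation replicate 1 lay closest to the implantation arrays. Without that array both passed, at −0.40 (adjusted p = 0.0488) and −0.48 (0.0168). Over all alternatives the adjusted p ran from 0.0033 to 0.26 for the first and from 0.0022 to 0.35 for the second.

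Other small subunit proteins at the lower end lie in different parts of the subunit. RPS14, a protein of the platform whose loss underlies the anaemia of the 5q- syndrome, read 9.68, 9.90 and 9.92 at implantation and 10.03, 10.09 and 10.09 at interimplantation sites at its brightest probe set (208645_s_at). The groups did not overlap, and the difference was −0.24 ± 0.08 (SE; adjusted p = 0.302). RPS15, a protein of the head that is needed for export of the subunit from the nucleus, read 8.67, 8.72 and 8.67 against 8.77, 9.11 and 8.85 (−0.23 ± 0.09 SE; adjusted p = 0.405). Its groups did not overlap either, and interimplantation replicate 2 stood above the other arrays. RPS16, whose tail reaches into the decoding centre, had a difference of −0.27 ± 0.11 (SE), but interimplantation replicate 1 (7.14) lay below implantation replicate 2 (7.15). Without interimplantation replicate 2 the difference was −0.16 for RPS16 and −0.125 for RPS15. RPS28 (208902_s_at, −0.22), RPS24 (−0.21) and RPS21 (214097_at, −0.18) were also among the 12 lower probe sets with the smallest p. The other probe sets of RPS28 were above 0, at 0.11 (208903_at, its brightest) and 0.095 (208904_s_at). RPS21 was at −0.11 without implantation replicate 3.

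**Figure D1:**
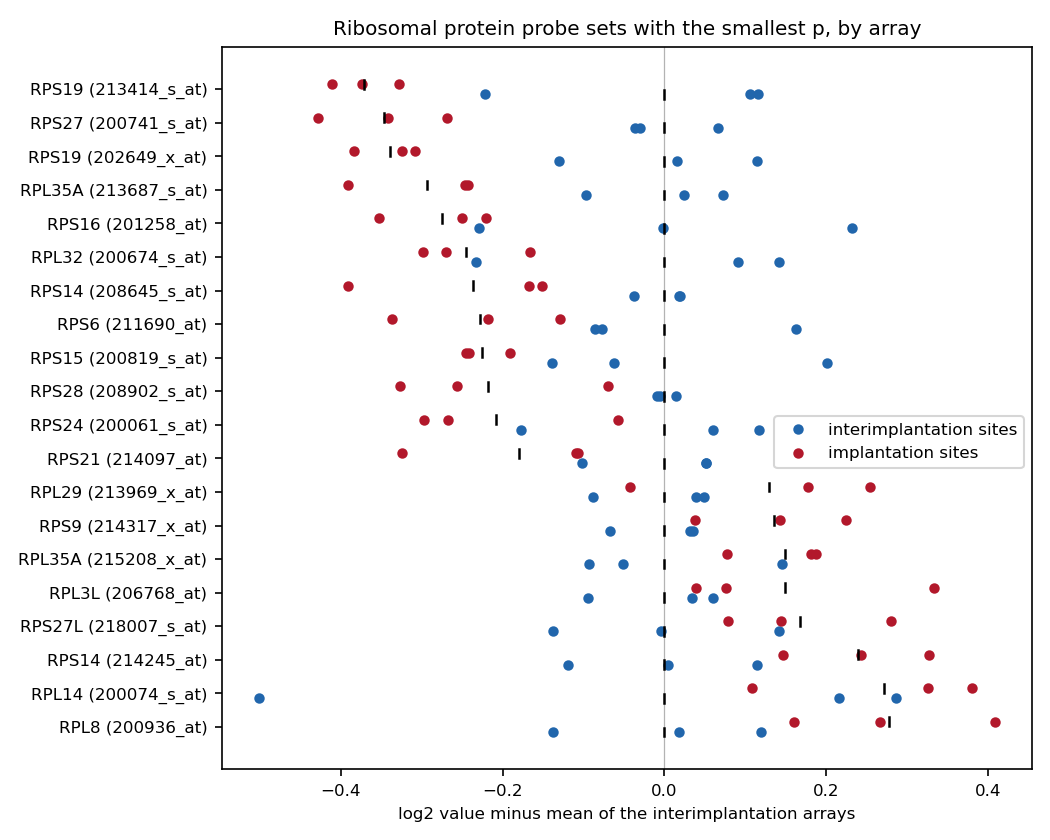
Log2 value of each array minus the mean of the 3 interimplantation arrays (x axis), for the 12 lower and 8 higher ribosomal protein probe sets with the smallest p (y axis). Each point is an array, and vertical bars mark group means. In RPS27 and both RPS19 probe sets all implantation arrays lie below all interimplantation arrays, while no probe set passed the threshold.

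RPS6, the small subunit protein that the S6 kinases phosphorylate, was read by 4 probe sets, all below 0. Their differences were −0.23 (211690_at), −0.16 (201254_x_at), −0.14 (200081_s_at) and −0.08 (209134_s_at). The one furthest from 0 was dim, with values of 2.91, 3.03 and 3.12 against 3.16, 3.17 and 3.41. Its groups did not overlap, and its adjusted p was 0.392. Without interimplantation replicate 3 it was at −0.15. The 201254_x_at value was −0.09 without interimplantation replicate 1, and that of 200081_s_at −0.08 without interimplantation replicate 2.

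In the large subunit, RPL35A and RPL32 were at the lower end and RPL8 at the upper end. RPL35A, another gene of Diamond-Blackfan anaemia, read 6.69, 6.69 and 6.54 at implantation and 6.84, 7.01 and 6.96 at interimplantation sites at its brightest probe set (213687_s_at). The groups did not overlap (−0.29 ± 0.08 SE; adjusted p = 0.144). RPL32 had a difference of −0.24 ± 0.10 (SE; adjusted p = 0.407), with an overlap of the groups.

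RPL8, a protein that lies next to the centre where the peptide bond forms, went the other way. It read 7.71, 7.56 and 7.46 at implantation against 7.32, 7.42 and 7.16 at interimplantation sites. The groups did not overlap, and the difference was 0.28 ± 0.09 (SE), 1.21-fold higher (adjusted p = 0.269). Over 17 alternatives the difference stayed between 0.21 and 0.34 and the adjusted p between 0.141 and 0.589.

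The other higher probe sets with the smallest p were less even. RPL14 (200074_s_at) had a difference of 0.27 ± 0.17 (SE), which rested on interimplantation replicate 1: that array read 4.67 and the other 5 read 5.28 to 5.55. Without it the difference was 0.02, and without interimplantation replicate 2 it was 0.41. RPL29, a large subunit protein also described at the cell surface as a heparin-binding protein of uterine epithelium, was at 0.13 ± 0.09 (SE; adjusted p = 0.683) at one probe set (213969_x_at) and at −0.03 at the other. The first was at 0.07 without implantation replicate 3, at 0.09 without interimplantation replicate 1 and at 0.22 without implantation replicate 1. RPS9 (214317_x_at) was at 0.13 ± 0.08 (SE), with no overlap of the groups.

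The stalk is the flexible arm of the large subunit that recruits elongation factors. Its member RPLP1 read 8.95, 9.17 and 9.12 at implantation and 9.17, 9.41 and 9.11 at interimplantation sites, a difference of −0.15 ± 0.10 (SE) with overlapping groups. It was at −0.08 without implantation replicate 1 and at −0.06 without interimplantation replicate 2. RPLP2 was at −0.01 (200908_s_at, 95% interval −0.18 to 0.16) and −0.0043 (217670_at, −0.17 to 0.16). These 2 probe sets had means of 4.34 and 3.02 over the 6 arrays, against 10.32 for RPS27. The intervals thus do not show whether the RPLP2 message changed less than that of RPS27. RPL11, which with RPL5 binds MDM2 when ribosome assembly is disturbed, was at −0.02 (95% interval −0.24 to 0.20). RPLP0, the base of the stalk, was not analysed here.

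Several members are paralogs with tissue-restricted or stress-linked use in human and mouse. RPS27L, a paralog of RPS27 that p53 induces, read 2.89, 2.69 and 2.75 at implantation and 2.47, 2.60 and 2.75 at interimplantation sites (0.17 ± 0.09 SE; adjusted p = 0.572). Its groups overlapped and it was among the 3 dimmest members, while RPS27 was among the 3 brightest. RPL3L, the paralog of RPL3 in striated muscle, was at 0.15 ± 0.09 (SE), and RPL3 at −0.05 (215963_x_at). RPL39L and RPL10L, which are enriched in testis, were at 0.01 and −0.15, and RPL39 at −0.05. RPS4X, the X-linked form of its gene in human, was at −0.13 and −0.10 at its 2 probe sets. RPL10 and RPL36A had probe sets with several symbols alone. Leaving out 1 array moved these values: without implantation replicate 1, RPL3L was at 0.06, RPS27L at 0.11, RPL10L at −0.09 and RPS4X at −0.08 and −0.06. Without interimplantation replicate 1, RPS27L was at 0.10 and the second RPS4X probe set at −0.21, and without interimplantation replicate 2 RPS4X was at −0.06 and −0.05. RPL10L was at −0.23 without implantation replicate 2, and the second RPS4X probe set at −0.05 without interimplantation replicate 3. The dimmest members were 2 probe sets of RPL37A, at −0.03 (213459_at) and 0.07 (214041_x_at). None of these passed, and the differences between paralogs were not tested.

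The median difference was −0.01 for the 18 members with a mean under 4, −0.02 for the 35 from 4 to 6 and −0.06 for the 24 from 6 to 8. Of 16 probe sets with a mean of 8 or more, a bound chosen after the values were seen, 15 were below 0, with a median of −0.18. The groups did not overlap in 8 of these 16, all lower. Besides RPS27, RPS19, RPS14 and RPS15 these were RPS7 (−0.18), RPS4X (−0.13) and RPL34 (−0.13). The other bright members were RPL31 (−0.21), RPS18 (−0.19), RPS21 (−0.18), RPLP1 (−0.15), RPS4X again (−0.10), RPS15A (−0.09), RPS3 (−0.03) and RPS12, the exception, at 0.01. For the 77 members under 8 the median was −0.03, with 48 below 0. Just inside the bound lay RPS7 (mean 8.04) and just outside it RPL12 (200809_x_at, mean 7.98), which was at −0.08.

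Bright probe sets of other genes had a median of the opposite sign, a contrast that was not tested. Among 118 probe sets with a mean of 8 or more and no ribosomal protein symbol, the median was 0.13, 43 were below 0, and 31 passed as higher and 3 as lower. The groups did not overlap in 49 that were higher (41.5%) and 14 that were lower (11.9%). RPS12, read at 10.33, 10.39 and 10.34 against 10.25, 10.47 and 10.31, was the brightest member. Its difference was 0.01 as deposited and −0.36 after repeated quantile normalization (adjusted p = 0.0358). That step brings the top of all arrays to one distribution. The brightest 0.1% of the deposited values began at 9.72 to 9.84 on the implantation arrays and at 9.53 to 9.74 on the interimplantation arrays. After that step the median of the 16 bright members was −0.30, that of all 137 bright probe sets −0.08 instead of 0.06, and 6 members passed as lower.

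**Figure D2:**
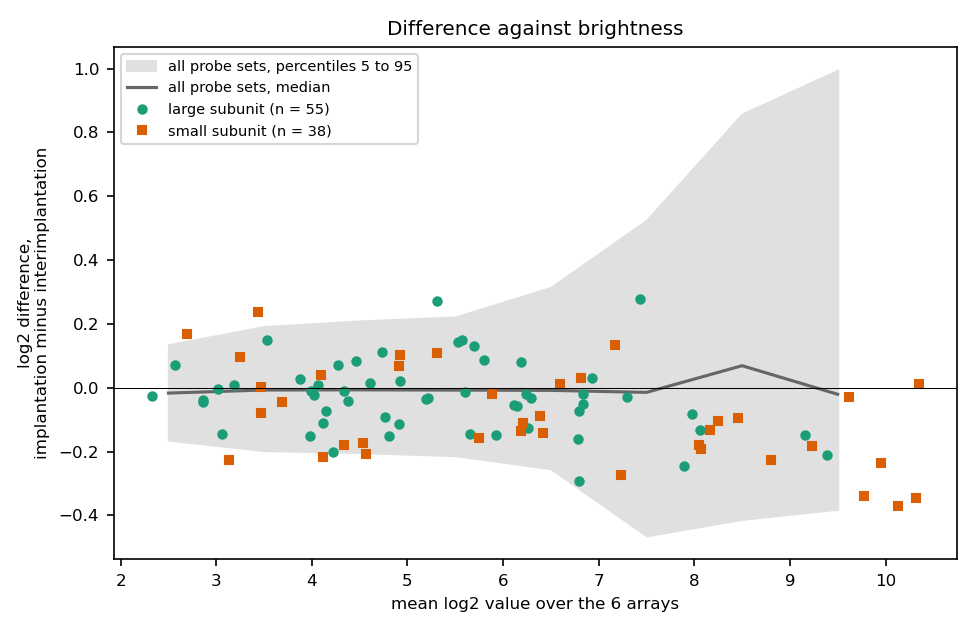
Log2 difference (implantation minus interimplantation, y axis) against the mean log2 value over the 6 arrays (x axis) for 55 large and 38 small subunit probe sets. The grey line and band are the median and the percentiles 5 to 95 of all probe sets in steps of 1 in brightness. Of the 16 members with a mean of 8 or more, 15 lie below 0.

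Interimplantation replicate 2 had the highest values in many members. It was the highest of the 6 arrays in 37 of 93 members (2700 of 22215 over all probe sets). Among the 16 bright members it was the highest in 15, beside 41 of all 137 probe sets with a mean of 8 or more. The median deviation of the members from their own means was 0.09 on this array, 0.02 on interimplantation replicate 3 and −0.02 on interimplantation replicate 1, against −0.04, −0.02 and −0.02 on the implantation arrays. Interimplantation replicate 1 lay among the implantation arrays. For the bright members the deviations were −0.13, −0.04 and −0.05 at implantation and −0.02, 0.23 and 0.08 at interimplantation sites, which do not overlap. Without interimplantation replicate 2 the median of the bright members was −0.09 and 14 of 16 were below 0. Without interimplantation replicate 1 it was −0.25, and 20 members in all were lower at an unadjusted p under 0.05 in place of 10.

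**Figure D3:**
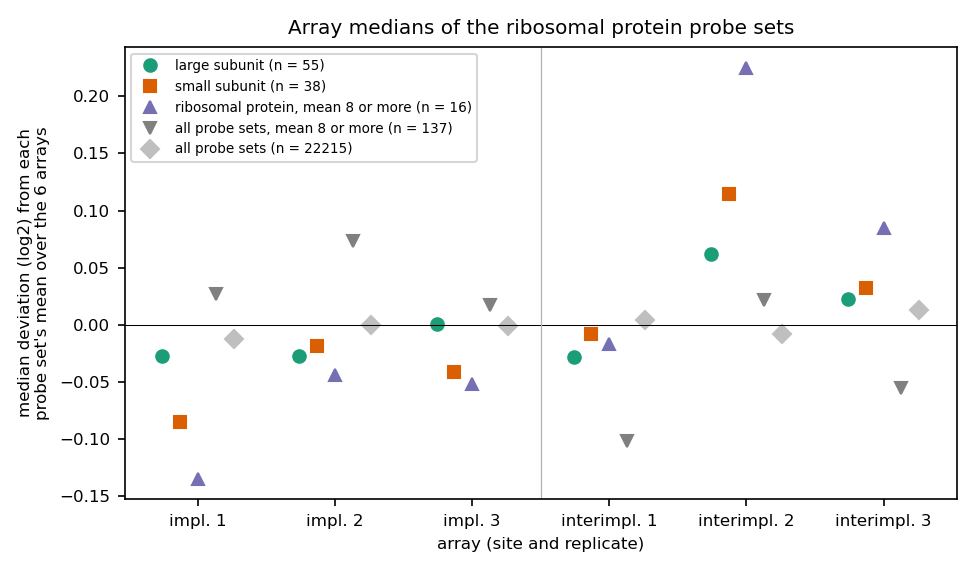
Median deviation (log2, y axis) of each list from its probe sets' own means over the 6 arrays, by array (x axis). Triangles for the 16 bright ribosomal protein probe sets are highest on interimplantation replicate 2 (0.23) and lowest on implantation replicate 1 (−0.13), while all 22215 probe sets stay near 0.

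Probe sets of one gene did not always point the same way. Of 23 genes with several probe sets, 9 were below 0 at all of them, 2 were above 0 at all, and 12 had both signs. RPS14 differed most: its bright probe set was at −0.24, and 2 dim ones were at 0.24 (214245_at) and −0.05 (217298_at). The higher one read 3.46, 3.56 and 3.64 at implantation against 3.43, 3.32 and 3.19 at interimplantation sites, with no overlap of the groups (adjusted p = 0.309). RPL35A was at −0.29, −0.02 and 0.15, and RPL14 at −0.14, 0.01 and 0.27. The lower RPL14 value (213588_x_at) was at −0.07 without implantation replicate 1, −0.23 without interimplantation replicate 1 and −0.0028 without interimplantation replicate 3. In all 3 genes the brightest probe set had the lowest difference. RPS28 also had both signs, and there the brightest probe set had the highest difference (0.11).

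When the probe sets of a gene were averaged, 5 of 55 genes were lower and 1 higher at an unadjusted p under 0.05, and 0 passed after adjustment. With each gene read at its brightest probe set the counts were 7 lower and 1 higher, with 0 past the threshold. The shares of all 11963 genes at that unadjusted p are not given here, so these counts have no background. With each gene read at its brightest probe set, the median over all genes was −0.01. For the members on that reading the medians were −0.07 in all, −0.05 for the large and −0.14 for the small subunit.

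**Figure D4:**
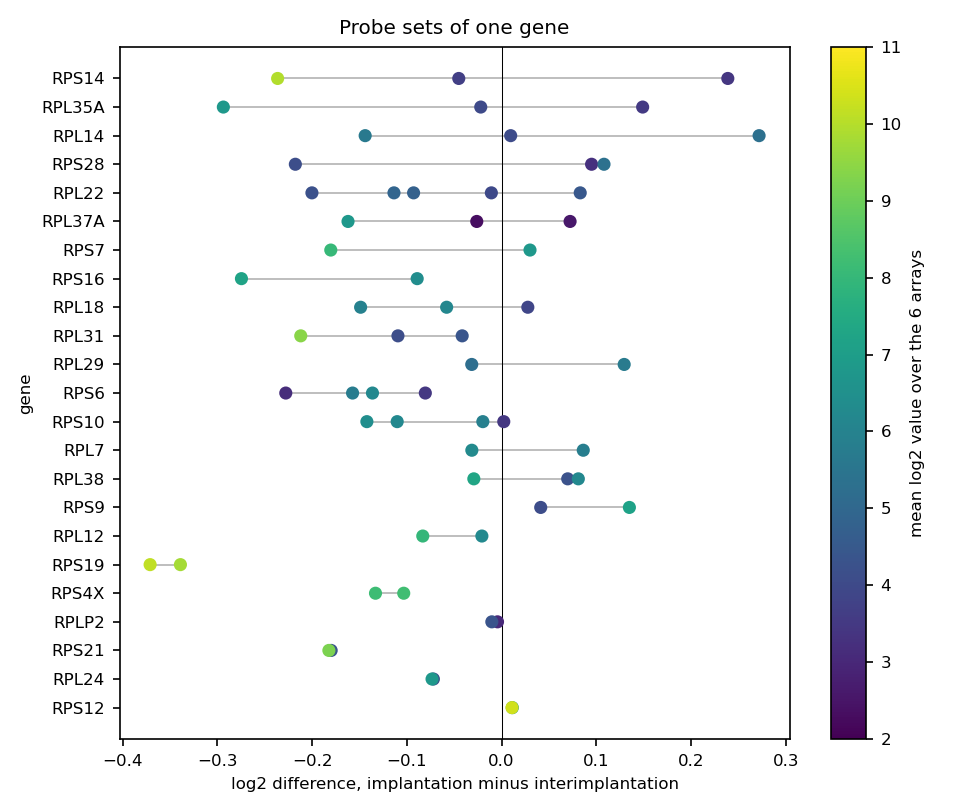
Log2 difference (implantation minus interimplantation, x axis) of each probe set of the 23 ribosomal protein genes (y axis) that have several, coloured by the mean log2 value over the 6 arrays. RPS19 lies at −0.37 and −0.34, whereas RPS14 reaches from −0.24 to 0.24.

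Probe sets whose name ends in _x_at hold probes that match several transcripts of the human design, and ribosomal proteins have many processed pseudogenes. Of the members, 32 were of this kind for 21 genes. Their median was −0.04, and RPS19 alone (1 of 32) was lower, with 0 higher, by an unadjusted p under 0.05 (3.12% lower, beside 7.04% of all _x_at probe sets). The 61 others had a median of −0.05, with 9 lower and 2 higher (14.8% and 3.28%, beside 5.0% and 4.98% of all probe sets not ending in _x_at). Of the 61 members, 35 ended in _s_at, whose probes all match several transcripts, often of one gene. These 35 had a median of −0.13, with 7 of 35 lower, beside 5.82% of all _s_at probe sets. The 26 with no such ending had a median of −0.02, with 2 lower (RPS16 and RPS6) and 2 higher (RPL8 and RPS14). These are 7.69% in each direction, beside 4.45% lower and 4.13% higher over all probe sets of that kind. Over all probe sets of these 3 kinds the medians were −0.01, −0.01 and −0.01.

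A further 55 probe sets of 20 ribosomal protein genes, 16 of them with no member probe set, carried several symbols, mostly small nucleolar RNAs that lie in introns of the host gene. They were left out by the rule and are given here as a list added after the values were seen. Their median was −0.07, with 40 below 0 and 0 past the threshold. By an unadjusted p under 0.05, 6 were lower and 0 higher (10.9% and 0%, beside 5.23% and 5.27% of all probe sets). The 6 were probe sets of RPS3A (−0.24 ± 0.07 SE), RPL17 (−0.25 ± 0.10 SE), RPL3 (−0.21), RPL23 (−0.20), RPL4 (−0.21) and RPL5 (−0.17). RPS3A, a protein of the small subunit, read 5.21, 5.26 and 5.29 against 5.46, 5.55 and 5.47, with no overlap of the groups. The array medians of these 55 probe sets were highest on interimplantation replicate 2 (0.08) and lowest on implantation replicate 1 (−0.06).

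Genes that work with the ribosomal proteins were read from 4 lists. Of 4 probe sets of ribosomal proteins named outside the rule, FAU, which encodes a fusion that yields RPS30, was at 0.03, RPL36AL at −0.09, RPL26L1 at −0.03 and RPS4Y1, a human Y-linked gene, at 0.02. None passed, and none had an unadjusted p under 0.05. Other messages with a TOP tract went both ways: of 42 probe sets for 15 genes 0 passed. By an unadjusted p under 0.05, 6 were lower and 4 higher (14.3% and 9.52%, beside 5.23% and 5.27% of all probe sets), and the median was −0.04. The lower ones were of TPT1, EEF1A1 and EEF1D only, and the higher ones of NPM1 and BTF3. TPT1, a growth-related calcium-binding protein, was at −0.36, −0.35 and −0.28 at 3 of 5 probe sets, and EEF1A1, which carries aminoacyl-tRNA to the ribosome, was at −0.26 and −0.23 at 2 of 4. NPM1, a nucleolar chaperone of ribosome assembly, was at 0.32 ± 0.07, 0.31 ± 0.07 and 0.30 ± 0.08 at its 3 probe sets (SE; adjusted p = 0.0729, 0.0873 and 0.13).

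Among S6 kinases and the growth pathway, 0 of 30 probe sets passed. Higher values with an unadjusted p under 0.05 were found in 2 (6.67%) and lower ones in 0, beside 5.27% and 5.23% of all probe sets. RPS6KB1, the main kinase of RPS6, was at 0.36 ± 0.09 (SE; adjusted p = 0.0812) and 0.13 at its 2 probe sets, RPS6KA3 at 0.25 and RPS6KA2 at 0.15 (212912_at) and −0.11 (204906_at). In the list of import, chaperoning and p53 surveillance 0 of 25 passed, 17 were above 0 and 8 below, and the median was 0.05. By an unadjusted p under 0.05, 8 of 25 had higher values and 1 a lower one, beside 5.27% and 5.23% of all probe sets. IPO7, an importin that carries ribosomal proteins into the nucleus, was at 0.56 ± 0.12 (SE; adjusted p = 0.0504) at one probe set and at 0.32, −0.11 and −0.09 at the others. TNPO1, another such importin, was at 0.62 ± 0.15 (SE; adjusted p = 0.0907), 0.47, 0.29, 0.24 and 0.03. BCCIP, a chaperone of RPL23, was at −0.29.

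**Figure D5:**
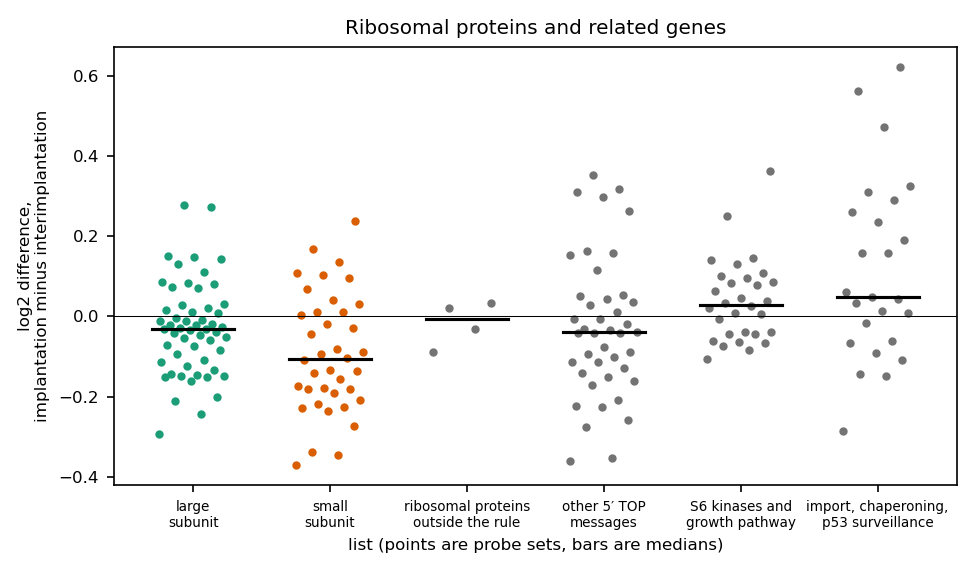
Log2 difference (implantation minus interimplantation, y axis) of single probe sets (points) and list medians (bars) for both subunits and the 4 related lists (x axis). Medians are −0.03 for the large subunit, −0.11 for the small subunit and 0.05 for import, chaperoning and p53 surveillance.

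Markers of cell types in the pieces were read as well. Of 12 smooth muscle probe sets 9 were below 0 and TAGLN (−0.56) and ACTG2 (−0.80) passed as lower. All 6 epithelial probe sets were below 0 and none passed. Their array medians were −0.09 to −0.06 at implantation and 0.02 to 0.13 at interimplantation sites, and those of smooth muscle −0.11 to −0.03 and 0.02 to 0.09. Of 9 proliferation probe sets 8 were above 0 and 2 passed as higher, with array medians of 0.05 to 0.11 and −0.17 to −0.05. The stroma, endothelium, leukocyte and erythroid lists had 0 of 16, 6, 5 and 4 probe sets past the threshold and medians of −0.08, −0.03, −0.05 and −0.20. The part of cell type content in the differences of ribosomal proteins was not tested.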

How the data were processed

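RNA of 6 pieces of uterus was hybridised to Affymetrix arrays designed on human transcripts. The deposited values are RMA summaries on a log2 scale, which the submitters' processing notes credit to Partek 6.6. Its settings and the log base are stated in no source at hand, and base 2 was read from the range of the values (1.65 to 12.08). RMA brings arrays to one distribution, so a change of total message per piece is not visible.

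Of 22283 probe sets 68 controls were left out. Platform annotation gave 1 symbol to 19065 of the 22215 tested, several to 1043 and none to 2107. The test was limma's (version 3.58.1, R 4.3.3: lmFit and eBayes, two-sided, without covariate or filter), with Benjamini-Hochberg adjustment over all probe sets. Summaries were made with pandas 2.3.3. The number of arrays limits the precision, and no batch is labelled. On data simulated for these 22215 probe sets the fit recovered 28.3% of 60 probe sets changed 1.25-fold and 100% of 70 changed 1.5-fold.

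Members and lists were chosen with earlier results of these data known. Named probe sets were the 12 lower and 8 higher members with the smallest p, any past the threshold in 2 or more alternatives that keep all arrays, paralogs, stalk proteins, the 3 brightest and 3 dimmest members, the 3 genes with the most discordant probe sets, RPS6, RPL5, RPL11 and RPL23, and the 3 smallest p of each related list. All other genes were named after their values were seen. Alternatives were filters on brightness, 3 further normalizations, a replicate block, a variance trend, array weights, probe set and gene readings, and leaving out each array.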

Additional observations from a re-analysis of the deposited data

How the results depend on the processing

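No ribosomal protein probe set passed as higher under any alternative run. As lower, 1 passed with the brightness filter at the median, 2 with that at the third quartile, 6 after repeated quantile normalization, 2 after cyclic loess, 1 with array weights, and 0 to 2 when single arrays were left out. The 6 were RPS27 (−0.61), RPS19 (−0.57 and −0.62), RPS14 (−0.47), RPS15 (−0.40) and RPS12 (−0.36). At an unadjusted p under 0.05 the lower count was 19 after repeated quantile normalization, 2 without _x_at and _s_at probe sets, 5 with probe sets averaged by gene, 16 with members widened to several symbols (an alternative chosen after seeing the data) and 7 to 20 when single arrays were left out, and the higher count was 1 with either brightness filter and either gene reading and 1 to 4 when single arrays were left out. The median of the small subunit was −0.16 after repeated quantile normalization and −0.0287 without _x_at and _s_at probe sets. That of members not ending in _x_at was −0.13 with the stricter filter, and that of _x_at members −0.0856 to −0.0152 without single arrays. No median of the members or of the subunits changed sign, but not all stayed below that of all probe sets. Without interimplantation replicate 2 the latter was −0.0155, beside −0.0044 for the large subunit and −0.0152 for _x_at members. On that setting the small subunit was at −0.0641 and all members at −0.0397. Over all probe sets, 156 passed as higher and 79 as lower. The counts were 37 and 20 without _x_at and _s_at probe sets, 73 and 26 with the gene mean, and 93 higher with the brightest probe set per gene, where fewer features were tested, and 133 lower with array weights. Without single arrays they were 83 to 140 and 33 to 90. No label says that replicate numbers pair the arrays, and same-numbered deviations correlated at 0.05, −0.00 and 0.07, which does not settle whether they share an animal. With a replicate block 0 members passed, 13 were lower and 3 higher at an unadjusted p under 0.05, and the median was −0.05, with 159 and 93 probe sets past the threshold in all.

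Values near 0 changed sign. RPS12 was at −0.36 after repeated quantile normalization, −0.0084 after cyclic loess and −0.0125 with array weights, and ran from −0.0364 to 0.0757 without single arrays. RPLP2 (217670_at) was at 0.0044, 0.0068 and 0.0235 under these 3, and at −0.0533 to 0.0228 without single arrays. RPL35A (215249_at) was at 0.0011 with array weights. The gene mean of RPL14, taken over its 3 probe sets, was at 0.0458, where 213588_x_at alone was at −0.14. Without single arrays RPL39 ran from −0.11 to 0.0265, RPL39L from −0.0518 to 0.0446, RPLP2 (200908_s_at) from −0.065 to 0.0174, RPS14 (217298_at) from −0.12 to 0.0572, RPL35A (215249_at) from −0.12 to 0.0967, RPL14 (219138_at) from −0.0389 to 0.0623 and RPL11 from −0.0979 to 0.0654. The cause of these shifts was not tested. Of 589 values of named probe sets under alternatives, gene means among them, 548 kept both direction and side of the threshold. Dim members (18 with a mean under 4) are dim on arrays of human probes, which limits what their small differences show.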

Other observations

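Some members not described above also had groups of arrays that did not overlap, and are given here as values chosen after they were seen. RPL22, a large subunit protein that also binds RNA outside the ribosome, was below 0 at 4 of its 5 probe sets (−0.20, −0.11, −0.09 and −0.01) and at 0.08 at the fifth. Of these 5, 2 were lower with no overlap of the groups, as were 8.3% of all probe sets. The first (208768_x_at) read 4.82, 4.91 and 4.85 at implantation and 5.01, 4.98 and 4.93 at interimplantation sites. Its difference was −0.11 ± 0.07 (SE; adjusted p = 0.642, limma). The second (221775_x_at) read 4.74, 4.76 and 4.67 against 4.76, 4.80 and 4.88 (−0.09 ± 0.07 SE; adjusted p = 0.729, limma). RPS25, a small subunit protein used by viral entry sites for internal initiation, read 4.24, 4.55 and 4.55 against 4.66, 4.59 and 4.62 (−0.17 ± 0.09 SE, adjusted p = 0.563, limma), with implantation replicate 1 lowest. RPL36 was at 0.14 ± 0.15 (SE), with interimplantation replicate 1 at 5.03 and the other 5 arrays between 5.54 and 5.75, as in RPL14.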
